A study of Mus musculus with 8 samples.

Results

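The genes described here are the Rab GTPases, 58 of the 19084 named genes on the array. A gene was counted as a member when its symbol in the array's annotation was Rab followed by a number, with or without a letter, so proteins that only bind Rabs were left out. The 58 members had 67 probes, and the brightest probe on average stood for the gene. All 58 were matched to the RefSeq annotation of the mouse genome (GRCm38.p6) by Entrez ID, and 4 of them lie on the X chromosome. RNA came from RAW264.7 cells, a macrophage-like mouse line, that stably expressed an shRNA against luciferase (shLuc, the control) or an shRNA against Dab2 (shDab2-B). Dab2 (Disabled-2) is an adaptor protein of clathrin-mediated endocytosis. Both lines were treated with PBS, the vehicle, or with LPS, the lipopolysaccharide that activates Toll-like receptor 4 (TLR4), at 100 ng/ml for 6 h. Each of the 4 groups was measured on 2 one-colour arrays. There was 1 line per shRNA, so an effect of the Dab2 shRNA and any other difference between the lines cannot be told apart. The labels do not say whether the 2 arrays of a group came from separate cultures, so the p-values cover no more than the spread from array to array, which may be technical.

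Rab proteins are small GTPases that mark the membranes of the cell. Exchange factors load them with GTP, GTPase-activating proteins switch them off, and a dissociation inhibitor takes the inactive form off the membrane. In the GTP-bound form they recruit effectors such as motors and tethers, which move vesicles and dock them. In macrophages, Rabs steer phagosomes and endosomes towards the lysosome or back to the surface. They also set where TLR4 meets its adaptors, and Rab7b, Rab10 and Rab11a are the members that the study discusses for TLR4 traffic.

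The arrays were alike in quality. Replicate arrays correlated at 0.9949 to 0.9963 over all probes and at 0.9944 to 0.9979 over the 58 Rabs. The deposited intensities were not at a common level, with 75th percentiles of 209 to 319, and were therefore quantile-normalized. Fold changes below are on the scale of log2(normalized intensity + 50), which understates changes of dim probes. A gene was called at an adjusted p under 0.05 in limma, with Benjamini-Hochberg adjustment over 26423 probes. Of 9 measured macrophage markers, 8 were at or above a normalized intensity of 50 on every array, while 6 of 6 fibroblast and 4 of 5 lymphocyte markers were under 50 on every array. Their summed intensity, from the lowest to the highest array of a group, was 52700 to 86200 for the macrophage list and 15.5 to 60.4 over all groups for the fibroblast list. In shDab2-B over shLuc cells, 2 macrophage markers were called higher and 1 lower with PBS, and 4 higher and 2 lower with LPS. This is 33.3% and 66.7%, beside 12.1% and 20.7% of all genes. The largest of these log2 fold changes were those of Adgre1, 1.46 with PBS and 2.08 with LPS. The Dab2 probe gave 91.1 and 88.1 in shLuc cells with PBS against 59.1 and 76.0 in shDab2-B cells, and 52.2 and 72.4 against 39.1 and 34.8 with LPS. All 4 shDab2-B arrays were below the shLuc arrays of the same treatment, but neither difference was called. The log2 fold change was -0.25 with PBS (adjusted p = 0.26, limma) and -0.36 with LPS (adjusted p = 0.058, limma). The probe was dim, so the offset understates both. For the protein, the study reported by Western blot that Dab2 was reduced in shDab2-B cells. All 7 genes of an LPS check list rose in both lines.

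Expression of the family was broad. Of the 58 Rabs, 37 were at or above 50 on all 8 arrays, 8 on some arrays, and 13 on none. Those under 50 throughout were Rab17, Rab23, Rab26, Rab27a, Rab30, Rab33a, Rab37, Rab38, Rab39b, Rab3b, Rab40b, Rab42 and Rab44, many of which are known from epithelia, neurons, pigment cells or secretory granules. The 8 that passed on some arrays only were Rab19, Rab25, Rab36, Rab39, Rab3a, Rab3c, Rab4a and Rab5b. A level of 50 is not a limit of detection, and a dim probe can mark low RNA or a weak probe.

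LPS moved the Rabs in both directions. In shLuc cells 21 of the 58 were called, 9 higher and 12 lower, which is 36.2% beside 27.2% of all genes (11.6% higher and 15.7% lower). In shDab2-B cells 23 were called, 9 higher and 14 lower, which is 39.7% beside 31.5% of all genes (13.4% and 18%). Among members with a mean of at least 50, the shares were 50% and 54.8%, beside 50% and 58% of the 9505 genes at that level, so the Rabs as a family were called about as often as other genes of like intensity. Over the 58, the median log2 fold change was 0.04 in the control line and -0.01 in the shDab2-B line, and over all genes it was 0 in both. Without normalization the split was 5 higher and 16 lower in the control line and 3 higher and 25 lower in the shDab2-B line, and with a common 75th percentile it was 10 and 10 in both lines. Most of the calls were small, since 13 of the 21 and 11 of the 23 were within 0.5 on the log2 scale. On the scale used here, only Rab20 and Rab7b passed a log2 fold change of 1.5 in either direction in shLuc cells, beside 1.2% of all genes. Rab20, Rab7b and Rab3a did so in shDab2-B cells, beside 2.34%. This depended on the offset of 50, since Rab3a in shLuc cells was at -1.65 with an offset of 16 and at -1.82 with a floor of 50. Rab15 in shDab2-B cells reached -1.73 over the alternatives. The study's own lists of genes changed by LPS hold Rab3a for shLuc cells and Rab15 for shDab2-B cells.

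The LPS calls of the 2 lines come from separate arrays, and 17 Rabs were called in the same direction in both, 6 higher and 11 lower. These were 81% of the calls in the shLuc line and 73.9% of those in shDab2-B cells, and over all genes the corresponding shares were 80.6% and 69.8%. No Rab was called in opposite directions. Rab20, Rab21, Rab22a, Rab11a, Rab7 and Rab8b rose in both lines, although Rab22a was at -0.02 in shDab2-B cells without normalization and not called. Rab2a, Rab19, Rab34, Rab14, Rab7b, Rab9, Rab29, Rab3a, Rab32, Rab8a and Rab40c fell in both.

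**Figure D1:**
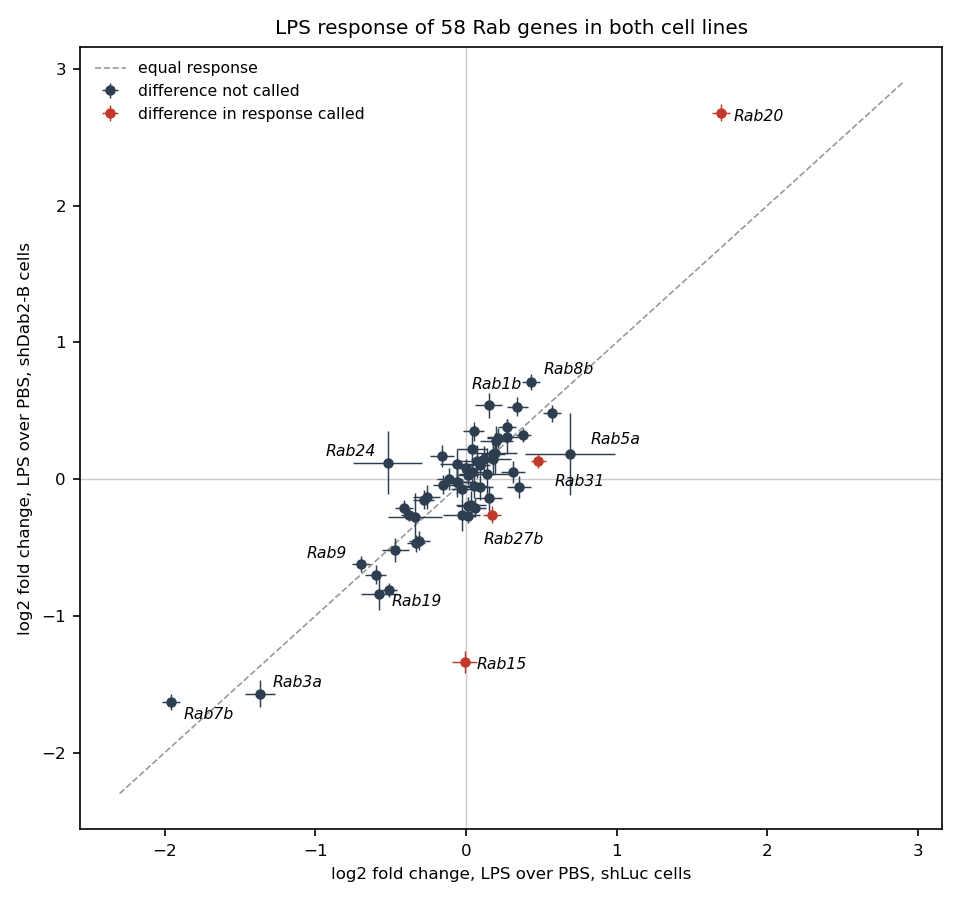
Log2 fold change with LPS in shLuc cells (horizontal axis) and in shDab2-B cells (vertical axis) for the 58 Rab genes, 2 arrays per group, with standard errors from limma as bars and a dashed line at equal response. Rab20 sits at the upper right (1.69 and 2.68), Rab7b at the lower left (-1.96 and -1.63), and Rab15 far below the line (-0.01 and -1.34).

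Between the lines, 16 of the 58 Rabs were called with PBS, 10 higher and 6 lower in shDab2-B cells, which is 27.6% beside 12.1% of all genes (5.65% higher and 6.4% lower). With LPS 20 were called, 13 higher and 7 lower, which is 34.5% beside 20.7% of all genes (9.07% and 11.6%). For members with a mean of at least 50 the shares were 38.1% with PBS and 45.2% with LPS, beside 22.9% and 38.3% of genes at that level. The PBS count rested on the normalization and on single arrays. It was 24 higher and 2 lower without normalization, where the median over all genes was itself at 0.13, and 10 in all without either shLuc PBS replicate 1 or shDab2-B PBS replicate 1. With LPS it was 16 higher and 4 lower without normalization, 13 in all without shLuc LPS replicate 2 and 12 without shDab2-B LPS replicate 2. The PBS and LPS comparisons of the lines share no array. Rab2a, Rab11a, Rab14 and Rab7 were higher and Rab15 and Rab39 lower in both, Rab20 was called in opposite directions, and the 6 shared calls were 37.5% of those with PBS and 30% of those with LPS (62.1% and 36.1% over all genes). No Rab passed a log2 fold change of 1.5 between the lines with PBS, and only Rab15 did with LPS, beside 0.236% and 0.383% of all genes. Each LPS comparison shares its arrays with the comparison of the lines under the same treatment, so the 4 fold changes of a gene are not independent.

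The LPS response itself was called different between the lines for 4 Rabs, 1 of them higher and 3 lower in shDab2-B cells. This is 6.9%, beside 5.8% of all genes (2.72% higher and 3.08% lower). They were Rab20, Rab15, Rab27b and Rab31, and their values follow in the groups below. An unadjusted p under 0.05 was found for 16 of the 58, which is 27.6% beside 18.1% of all genes and 29.7% of genes with a mean of at least 50. The count of 4 was 10 without normalization and 2 without shDab2-B LPS replicate 2.

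**Figure D2:**
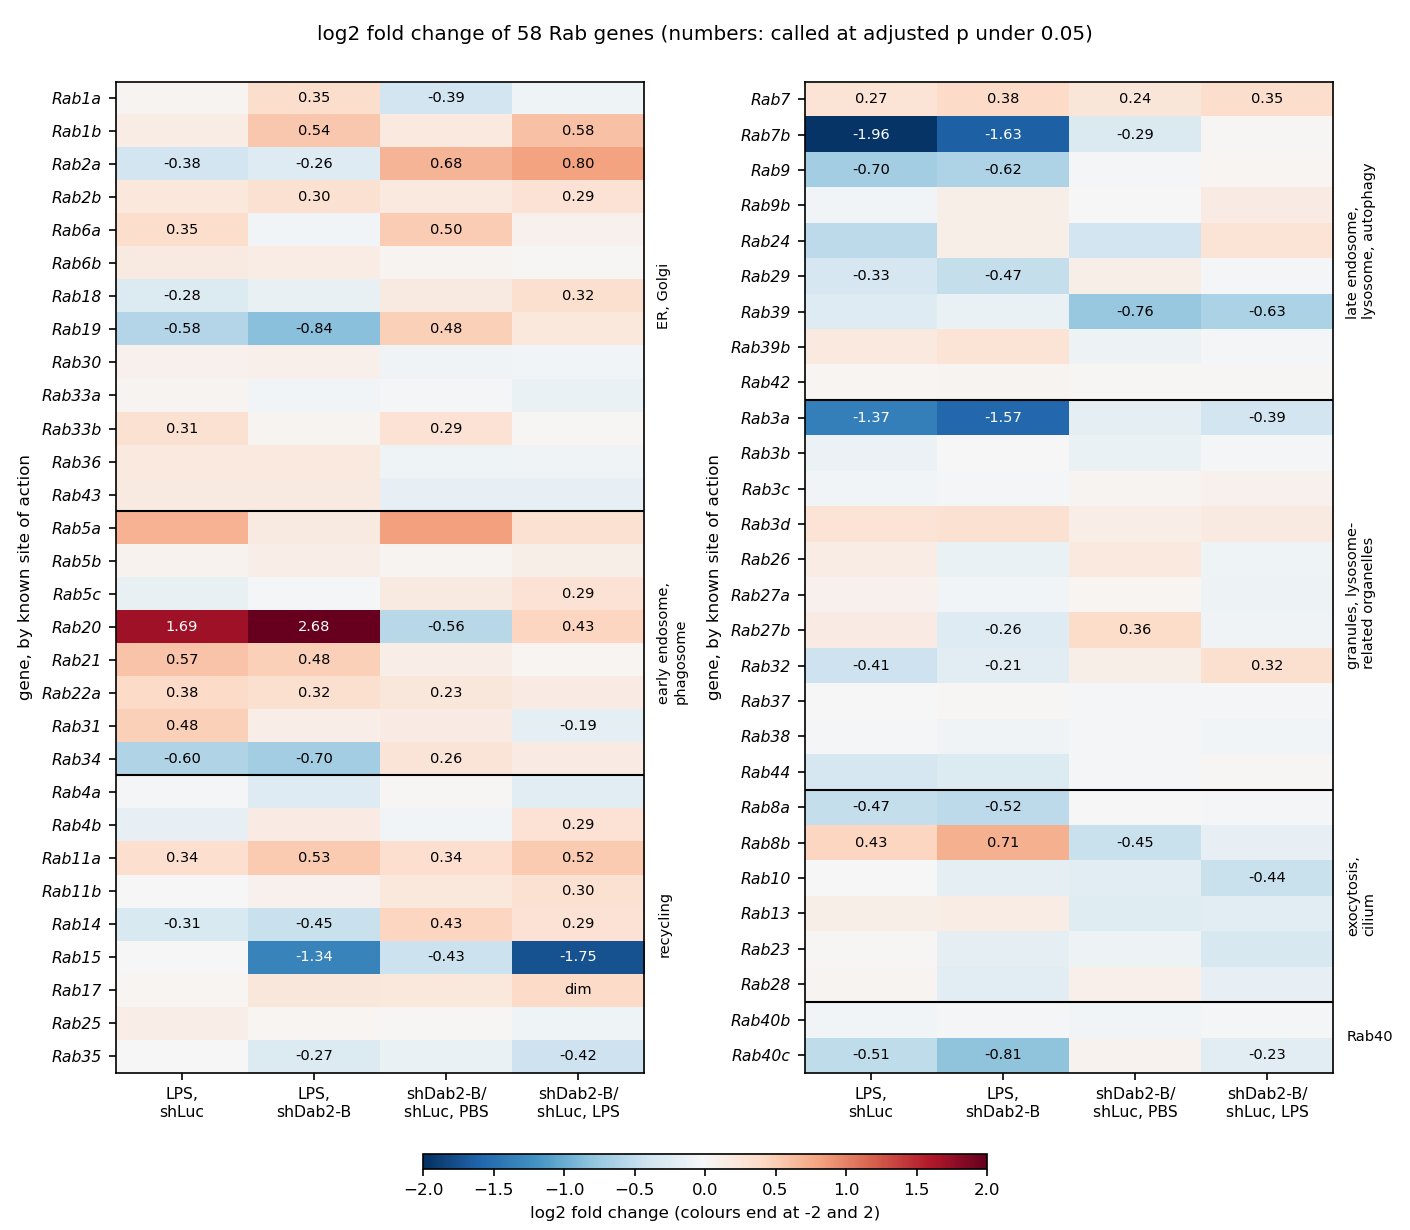
Log2 fold changes of all 58 Rab genes (rows, grouped by where the protein is known to act) in 4 comparisons (columns), as colours from -2 to 2, with the value printed where limma called the gene. The endosomal and recycling rows hold the values furthest from 0 on the left, led by Rab20 at 2.68 and Rab15 at -1.75, and Rab7b at -1.96 leads on the right.

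Among the 8 Rabs of early endosomes and phagosomes, 5 were called with LPS in shLuc cells, 4 higher and 1 lower, and 4 in shDab2-B cells, 3 higher and 1 lower. This is 62.5% and 50%, beside 27.2% and 31.5% of all genes and 50% and 58% of genes with a mean of at least 50, which 7 of the 8 had. Rab20, which is found on maturing phagosomes of macrophages, had the largest rise of the family in both lines. Its normalized intensity was 255.8 and 256.2 in shLuc cells with PBS and 932.3 and 940.6 with LPS. On shDab2-B arrays it gave 157.1 and 157.5 with PBS and 1328.4 and 1225.0 with LPS. The 4 groups did not overlap: shDab2-B cells were lowest with PBS and highest with LPS. On the log2 scale the rise was 1.69 ± 0.06 (SE) in the shLuc line (adjusted p = 7.6e-09, limma) and 2.68 ± 0.06 in the shDab2-B line (adjusted p = 8.5e-11). Between the lines it was -0.56 ± 0.06 with PBS (adjusted p = 0.00023) and 0.43 ± 0.06 with LPS (adjusted p = 0.00064), both limma. The difference in LPS response was 0.99 ± 0.09 (adjusted p = 8.3e-05, limma), and all 5 results of Rab20 were called in every alternative fitted with limma.

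Rab20 lies at chr8:11453390-11478640 of GRCm38.p6. Its promoter window from RefSeq (250 bases before to 50 bases after the start, chr8:11478591-11478890, minus strand) is shown because this gene had the largest response. Capitals mark an E-box, CACGTG, that starts 46 bases before the start. Searched on both strands, the E-box was in 7.15% of the 32851 windows of this length and in 6 of the 59 windows of the 47 Rabs with a window. No kB motif, no ISRE (TTTC and TTTC with 2 bases between them) and no AP-1 motif (TGANTCA) was found in the letters of this window.
Rab20: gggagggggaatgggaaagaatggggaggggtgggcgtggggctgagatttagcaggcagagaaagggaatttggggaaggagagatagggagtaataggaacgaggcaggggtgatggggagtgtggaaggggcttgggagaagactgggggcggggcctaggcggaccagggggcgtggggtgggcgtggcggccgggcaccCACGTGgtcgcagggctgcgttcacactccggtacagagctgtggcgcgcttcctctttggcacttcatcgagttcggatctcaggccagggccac

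Rab21, which carries integrins through early endosomes, gave 648.4 and 622.4 with PBS and 986.1 and 945.5 with LPS in shLuc cells. In shDab2-B cells the values were 720.9 and 675.9 with PBS and 1028.1 and 964.1 with LPS. All 4 LPS arrays were above all 4 PBS arrays, and the lines overlapped with LPS. Its log2 fold change with LPS was 0.57 ± 0.06 and 0.48 ± 0.06 (adjusted p = 4.2e-05 and 9.5e-05, limma); the second was 0.13 and not called without normalization (adjusted p = 0.15, range over the alternatives 1.8e-05 to 0.15). Rab22a, another endosomal Rab, rose by 0.38 and 0.32. Rab34, known from macropinosomes, lysosome positioning and cilia, moved the other way. It gave 1538.6 and 1664.8 with PBS and 1029.0 and 1043.6 with LPS in shLuc cells. For shDab2-B cells these were 1828.5 and 2016.6 under PBS and 1199.6 and 1128.5 under LPS. Every LPS array was below every PBS array, at -0.60 ± 0.07 in shLuc and -0.70 ± 0.07 in shDab2-B cells on the log2 scale (adjusted p = 4.2e-05 and 8.1e-06, limma). Its call between the lines with PBS (0.26, adjusted p = 0.032) was lost in 5 of 19 alternatives, among them without shLuc PBS replicate 1 (0.20) or shDab2-B PBS replicate 2 (0.19), and adjusted p ran from 0.00026 to 0.25.

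Rab31, a Rab of early endosomes and the trans-Golgi network, gave 2826.5 and 2843.0 with PBS and 3910.7 and 4034.2 with LPS in shLuc cells. In shDab2-B cells it gave 3195.5 and 3131.4 with PBS and 3521.1 and 3420.5 with LPS. LPS arrays were above PBS arrays in both lines, and by more in shLuc cells. LPS changed it by 0.48 ± 0.05 in shLuc cells (adjusted p = 3.6e-05, limma) and 0.13 ± 0.05 in shDab2-B cells (adjusted p = 0.089). The difference in response was -0.35 ± 0.07 (adjusted p = 0.019, limma). This call was lost in 8 of 18 alternatives, including those without any of 6 single arrays, and adjusted p ran from 0.0035 to 0.076.

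Rab5a, the GTPase of early endosome fusion, could not be judged in the comparisons with the shLuc PBS arrays. It gave 165.6 and 494.6 in shLuc cells with PBS, 512.9 and 492.2 with LPS, and 558.0, 549.6, 615.4 and 654.5 in shDab2-B cells. A single array, shLuc PBS replicate 1, lay far below the other 7, and it was singled out after the values were seen. For LPS in shLuc cells the fitted log2 fold change was 0.69 ± 0.30 (adjusted p = 0.13, limma). It was 0.02 without that array and 1.36 without the other shLuc PBS array, and adjusted p over the alternatives ran from 2.4e-06 to 0.91. Between the lines with LPS, where that array is not compared, Rab5a was at 0.31 (adjusted p = 0.59, limma), and at 0.27 to 0.43 over the alternatives. This difference was called in 3 of 19 alternatives, among them the 2 groups alone. Of the paralogs of Rab5a, Rab5c was called higher in shDab2-B cells with LPS (0.29, adjusted p = 0.0092, limma). Rab5b stayed between 29.4 and 53.2 on the 8 arrays with no call.

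**Figure D3:**
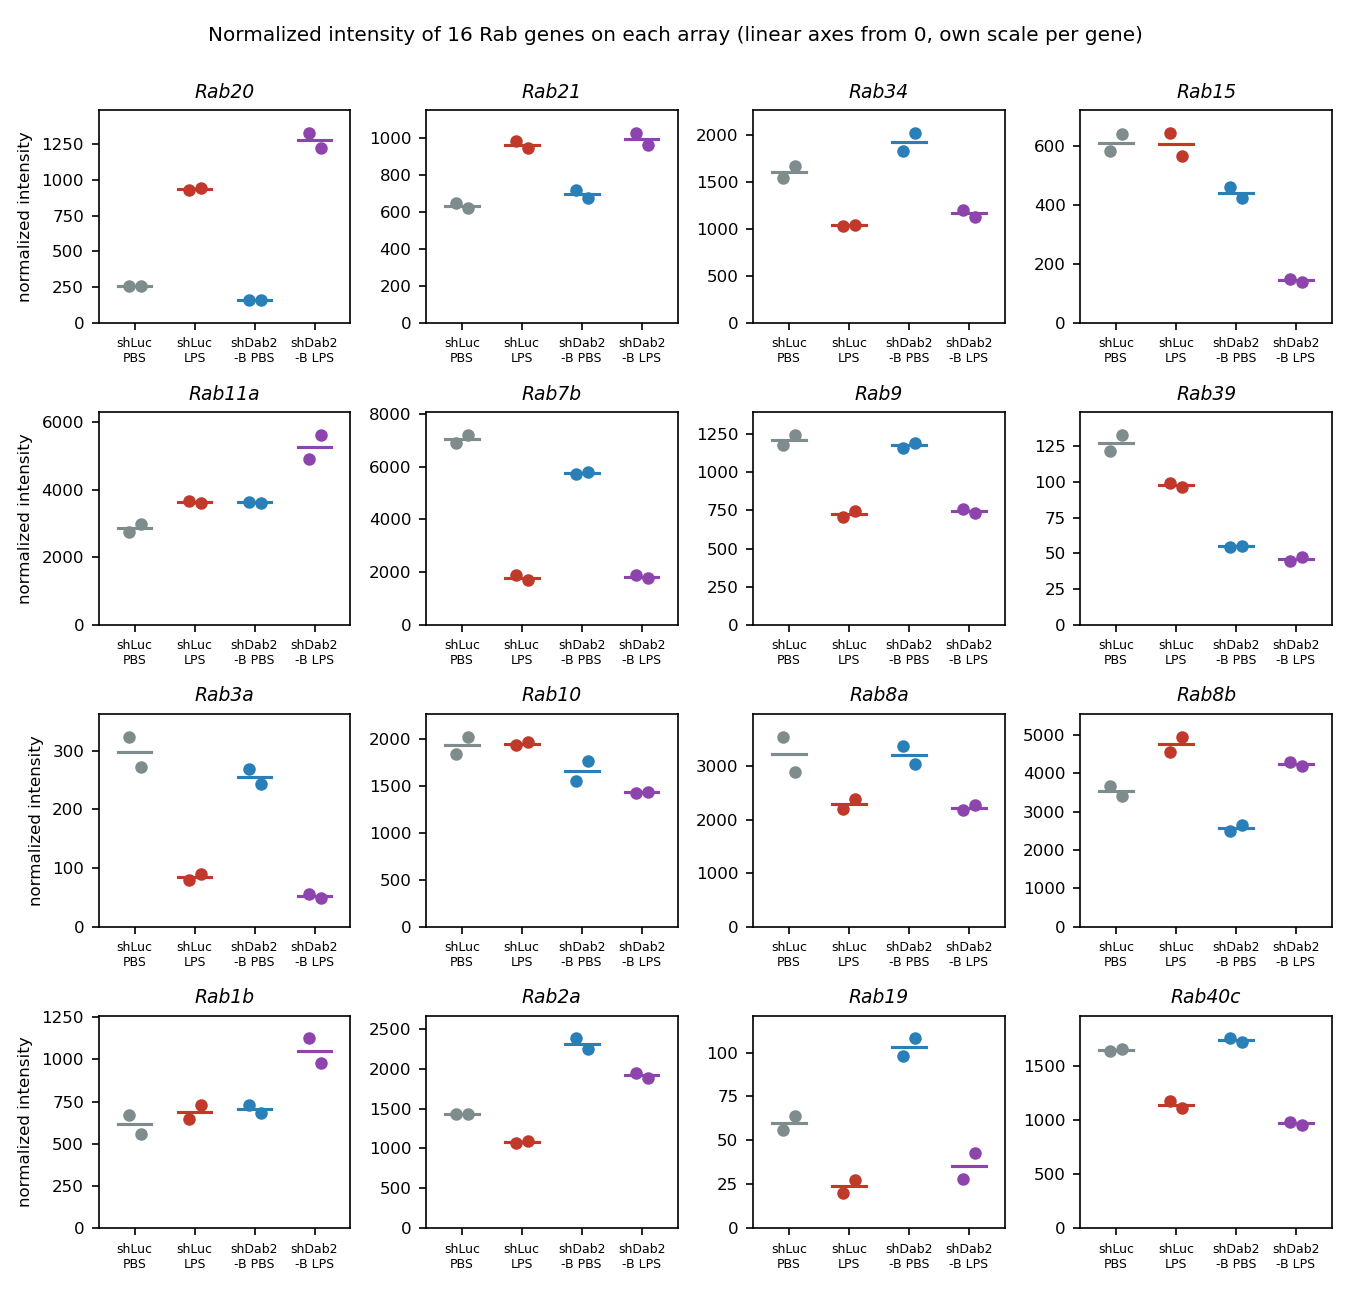
Normalized intensity (vertical axes, linear from 0, with its own scale for each gene) of 16 Rab genes on each of the 8 arrays, with points for arrays and a line for the mean of the 2 arrays of a group. Rab15 stands at 148.6 and 139.1 only in shDab2-B cells with LPS, and Rab7b drops from 5725.2 or more to 1887.4 or less with LPS in both lines.

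Of the 9 Rabs of the recycling route, 2 were called with LPS in shLuc cells, 4 in the other line, 3 between the lines with PBS and 7 between the lines with LPS (77.8%, beside 20.7% of all genes and 38.3% of those with a mean of at least 50, which 7 of the 9 had). The other shares, in that order, were 22.2%, 44.4% and 33.3%, beside 27.2%, 31.5% and 12.1% of all genes. For genes with a mean of at least 50 these shares were 50%, 58% and 22.9%. Of the 7 called with LPS, 5 were higher in shDab2-B cells (Rab4b, Rab11a, Rab11b, Rab14 and Rab17) and 2 were lower (Rab15 and Rab35). The second, dimmer probes of Rab11b and Rab17 were not called (-0.10, adjusted p = 0.70, and 0.01, adjusted p = 0.94, limma), and with the mean of all probes 17 of the 20 Rab calls of this comparison were kept. Rab15, a Rab of sorting and recycling endosomes, gave 581.5 and 637.9 in shLuc cells with PBS and 642.1 and 564.9 with LPS. In shDab2-B cells it gave 458.1 and 421.9 with PBS and 148.6 and 139.1 with LPS. The shLuc arrays overlapped between treatments, and the shDab2-B arrays with LPS were the lowest of all. In shDab2-B cells the log2 fold change with LPS was -1.34 ± 0.08 (adjusted p = 1.9e-07, limma), against -0.01 ± 0.08 in shLuc cells (adjusted p = 0.94). The difference in response was -1.32 ± 0.11 (adjusted p = 6.5e-05, limma), and the line difference with LPS was -1.75 ± 0.08 (adjusted p = 1.7e-07); both were called in every alternative fitted with limma. With PBS it was -0.43 ± 0.08 (adjusted p = 0.0059, limma). That call was lost without normalization (-0.13), without shLuc PBS replicate 2 (-0.37) and without shDab2-B PBS replicate 2 (-0.38), with adjusted p from 0.0021 to 0.36.

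Rab15 lies at chr12:76797960-76822759, and RefSeq lists several starts for it. Of 4 windows of 300 bases, all on the minus strand, 3 held none of the 4 motifs, and 2 are shown, because this is the Rab whose LPS response differed most between the lines. They are the outermost of the 4 windows (chr12:76822475-76822774), which held no motif, and the one window with a match, which was picked for it. The start of the outermost window lies inside the gene's end at 76822759, so it is the outermost start among these windows only. The array does not say which start was used. This second window (chr12:76818325-76818624) held an AP-1 motif that starts 245 bases before its start and a run of 2 overlapping kB matches that start 96 and 95 bases before it, all in capitals. The kB motif was in 8.46% of all windows and in 3 of the 59 Rab windows, and the AP-1 motif in 7.81% and 3. A match is a description of the letters and not a sign of binding.
Rab15 outermost start: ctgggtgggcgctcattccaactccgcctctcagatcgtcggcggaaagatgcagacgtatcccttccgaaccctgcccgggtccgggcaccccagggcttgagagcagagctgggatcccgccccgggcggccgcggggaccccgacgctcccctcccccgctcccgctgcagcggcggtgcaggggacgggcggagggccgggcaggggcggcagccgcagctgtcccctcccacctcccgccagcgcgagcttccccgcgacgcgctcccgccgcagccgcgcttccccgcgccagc
Rab15 start with a match: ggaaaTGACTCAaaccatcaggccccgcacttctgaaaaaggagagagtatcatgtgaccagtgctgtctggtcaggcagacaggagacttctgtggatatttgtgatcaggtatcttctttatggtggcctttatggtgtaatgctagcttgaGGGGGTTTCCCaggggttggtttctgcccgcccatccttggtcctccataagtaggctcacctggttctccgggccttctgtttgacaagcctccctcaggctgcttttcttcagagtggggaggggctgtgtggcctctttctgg

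Rab11a, the main Rab of the recycling endosome and one of the Rabs discussed for TLR4 traffic, rose with LPS and was higher in shDab2-B cells. It gave 2755.1 and 2984.0 with PBS and 3664.9 and 3605.5 with LPS in shLuc cells. Its shDab2-B values were 3648.8 and 3613.6 with PBS and 4905.9 and 5622.8 with LPS. The shDab2-B arrays with PBS lay within the range of the shLuc arrays with LPS, and those with LPS were the highest. It changed with LPS by 0.34 ± 0.07 and 0.53 ± 0.07 (adjusted p = 0.004 and 0.00012, limma), and the difference between the lines was 0.34 ± 0.07 with PBS and 0.52 ± 0.07 with LPS (adjusted p = 0.010 and 0.00032). A second probe gave 0.31, 0.27, 0.40 and 0.35 in the same order, all called. The call with PBS between the lines was lost in 4 of 19 alternatives, with a common 75th percentile (0.28) and without shLuc PBS replicate 1 (0.28), shDab2-B PBS replicate 1 (0.33) or shDab2-B PBS replicate 2 (0.35), and adjusted p ran from 0.00029 to 0.097. The call with LPS in shLuc cells was lost only without normalization (0.21).

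The remaining recycling Rabs moved less. Rab14, which acts between the Golgi and endosomes, fell with LPS by 0.31 and 0.45 and was higher in shDab2-B cells by 0.43 with PBS and 0.29 with LPS. Rab35, a Rab of fast recycling and actin, was called lower in shDab2-B cells with LPS (-0.42, adjusted p = 0.00031, limma) and had a log2 fold change with LPS of -0.27 there (adjusted p = 0.0025) and 0.01 in shLuc cells (adjusted p = 0.91), with no call for the difference in response (-0.29, adjusted p = 0.064). Rab17, known from epithelia, was called higher in shDab2-B cells with LPS (adjusted p = 0.018, limma), but its 8 values lay between 3.4 and 30.9, where both groups were dim, and no fold is given.

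**Figure D4:**
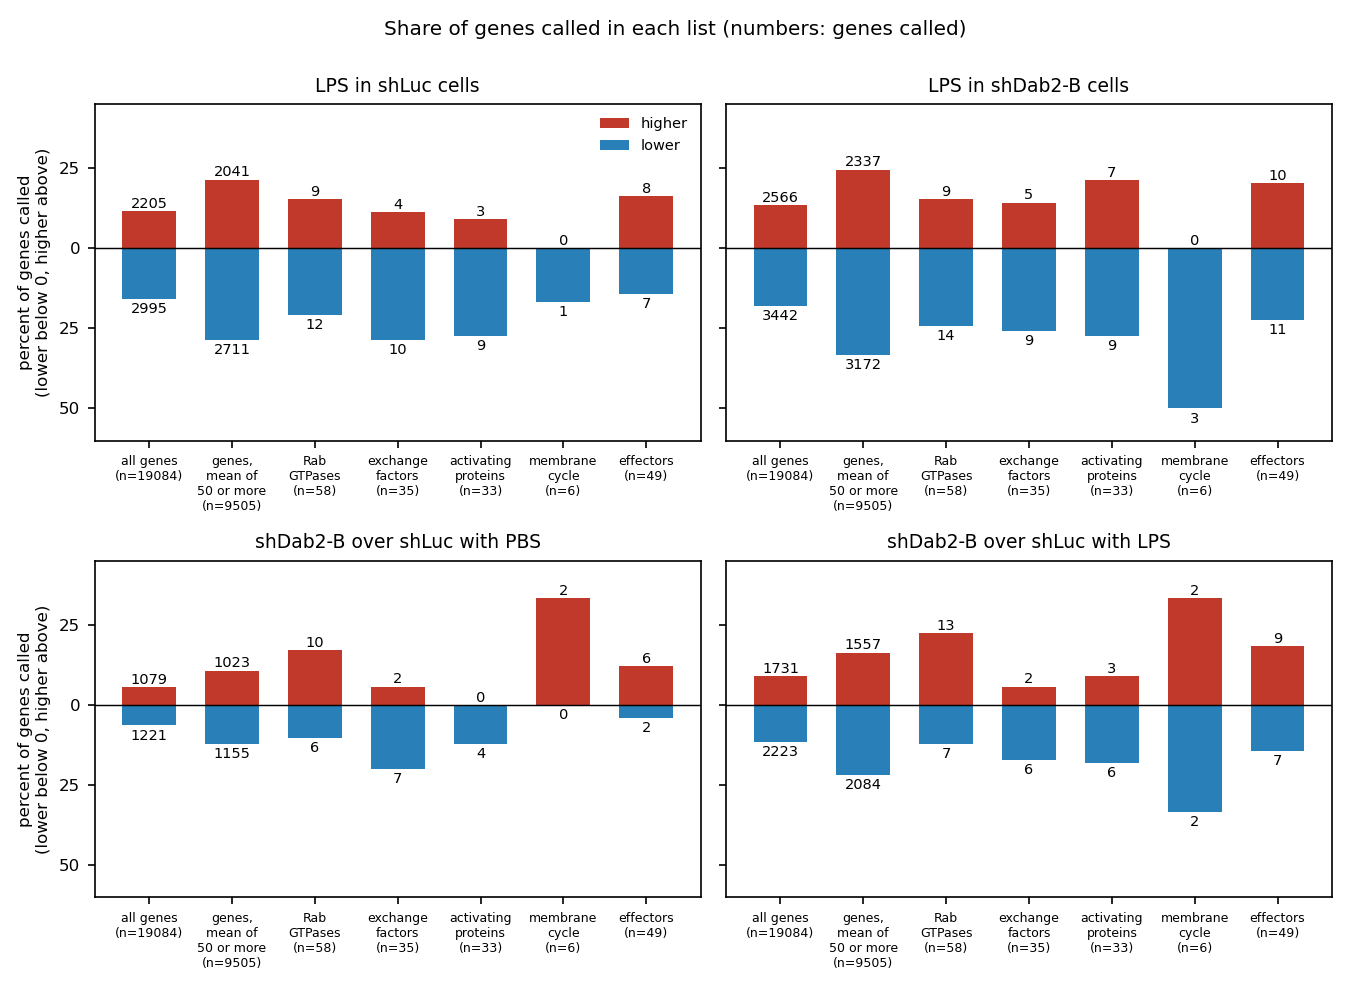
Percent of genes called higher (above 0) or lower (below 0) by limma in 4 comparisons (panels), for all genes, genes with a mean of at least 50, the 58 Rab GTPases and 4 lists of Rab regulators and effectors, with the number of genes called on each bar. With LPS, 9 Rabs were higher and 12 lower in shLuc cells, and between the lines with PBS 10 were higher and 6 lower.

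Of the 9 Rabs of late endosomes, lysosomes and autophagy, 4 were called with LPS in each line, 1 higher and 3 lower. This is 44.4% in each line, beside 27.2% and 31.5% of all genes. For genes with a mean of at least 50, which 7 of the 9 had, the shares were 50% and 58%. Rab7b, a Rab of late endosomes and lysosomes known to lower TLR4 signaling in macrophages, had the largest fall of the family in shLuc cells and, on the scale used here, in shDab2-B cells. It lies at chr1:131688681-131715443. Its values were 6910.2 and 7216.4 in shLuc cells with PBS and 1887.4 and 1683.9 with LPS. In shDab2-B cells the values were 5725.2 and 5821.0 with PBS and 1884.6 and 1769.5 with LPS. The lines were apart with PBS and overlapped with LPS. With LPS its log2 fold change was -1.96 ± 0.06 in shLuc cells and -1.63 ± 0.06 in the shDab2-B line (adjusted p = 2.9e-09 and 6.5e-09, limma), called in every alternative fitted with limma. Between the lines it was -0.29 ± 0.06 with PBS (adjusted p = 0.016, limma) and 0.03 ± 0.06 with LPS (adjusted p = 0.82). The PBS call was lost without normalization (-0.01), without shLuc PBS replicate 2 (-0.26) and without either shDab2-B PBS array (-0.28 and -0.31), with adjusted p from 0.0080 to 0.92. The difference in LPS response, 0.32 ± 0.09, was not called (adjusted p = 0.080, limma), and it was without dim probes and without shLuc LPS replicate 1 (0.40 for the latter, adjusted p = 0.041, range over the alternatives 0.041 to 0.34).

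Rab7, the Rab of fusion with lysosomes and a relative of Rab7b, moved the other way with LPS. It gave 1331.1 and 1410.2 with PBS and 1644.4 and 1680.1 with LPS in shLuc cells. On shDab2-B arrays it gave 1675.4 and 1580.1 with PBS and 2126.4 and 2148.2 with LPS. LPS arrays were above PBS arrays in both lines, and shDab2-B arrays were above shLuc arrays of the same treatment. Its log2 fold change was 0.27 and 0.38 for LPS in the control and the shDab2-B line, and 0.24 and 0.35 between the lines with PBS and LPS (adjusted p = 0.0042, 0.00027, 0.020 and 0.0011, limma).

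Rab9, which returns cargo from late endosomes to the Golgi, gave 1178.0 and 1245.8 with PBS and 709.4 and 744.0 with LPS in shLuc cells. In shDab2-B cells the values were 1162.8 and 1195.6 with PBS and 760.2 and 735.1 with LPS. The treatments did not overlap and the lines did. It fell with LPS by 0.70 ± 0.06 and 0.62 ± 0.06 on the log2 scale (adjusted p = 4.8e-06 and 7.2e-06, limma). Rab29, linked to lysosome stress and the Golgi, fell by 0.33 and 0.47. Rab39, which acts on phagosomes and in autophagy, was called between the lines and not with LPS. Its values were 122.0 and 133.1 in shLuc cells with PBS and 99.4 and 96.4 with LPS. For shDab2-B cells these were 54.2 and 55.5 under PBS and 44.4 and 47.4 under LPS. All shDab2-B arrays were below all shLuc arrays. In each line the LPS arrays were also below the PBS arrays. The log2 fold change with LPS was -0.26 in shLuc cells (adjusted p = 0.063, limma) and -0.13 in shDab2-B cells (adjusted p = 0.39). Between the lines the log2 fold change was -0.76 ± 0.09 with PBS (adjusted p = 0.00038, limma) and -0.63 ± 0.09 with LPS (adjusted p = 0.00064). With LPS the shDab2-B arrays were below 50, and the means of 97.9 and 45.9 give a level at least 1.96-fold lower. Here and below, such a bound takes the dimmer group at 50.

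Rab24, an atypical Rab linked to autophagy, was another gene that a single array decided, singled out after its values were seen. It gave 1743.6 and 1735.2 in shLuc cells with PBS and 1228.4 and 1163.4 with LPS. Its shDab2-B values were 910.1 and 1928.2 with PBS and 1496.9 and 1407.6 with LPS. The 2 shDab2-B arrays with PBS lay on either side of all others. The log2 fold change with LPS was -0.52 ± 0.23 in shLuc cells (adjusted p = 0.15, limma), where the LPS arrays were below the PBS arrays. This change was called in 4 of 19 alternatives, among them the 2 groups alone. The log2 fold change with LPS in shDab2-B cells was 0.12 ± 0.23 (adjusted p = 0.80, limma). In shDab2-B cells it was -0.40 without replicate 1 of shDab2-B PBS and 0.65 without replicate 2, with adjusted p over the alternatives from 8.5e-05 to 1.

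In the group of secretory granules and lysosome-related organelles, 4 of 11 Rabs had a mean of at least 50, and 2 were called with LPS in the shLuc line and 3 in the shDab2-B line, all lower. This is 18.2% and 27.3%, beside 27.2% and 31.5% of all genes (15.7% and 18% lower). Rab3a, best known from synaptic vesicle release, had the second largest fall of the family on this scale. It gave 324.0 and 272.9 with PBS and 79.5 and 89.1 with LPS in shLuc cells. For shDab2-B cells these were 268.1 and 242.6 under PBS and 56.0 and 49.5 under LPS. The treatments did not overlap, and with LPS shDab2-B arrays were the lower. The log2 fold change with LPS was -1.37 ± 0.10 and -1.57 ± 0.10 (adjusted p = 1.4e-06 and 2.5e-07, limma). The order of Rab3a and Rab7b in shDab2-B cells depended on the scale, since the ratio of the mean intensities was 4.84 for Rab3a and 3.16 for Rab7b, and Rab3a fell further with an offset of 16, a floor of 50 and a common 75th percentile. Its call between the lines with LPS (-0.39, adjusted p = 0.018, limma) was lost in 6 of 19 alternatives, among them without shLuc LPS replicate 2 (-0.34) or shDab2-B LPS replicate 2 (-0.34), with adjusted p from 0.0071 to 0.16. Rab3d, a relative found on secretory granules, gave 254.6 to 429.5 over the 8 arrays with no call, and Rab3b and Rab3c were dim.

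Rab27b, which acts in granule and exosome release, gave 1743.6 and 1699.9 with PBS and 2010.2 and 1870.0 with LPS in shLuc cells. In shDab2-B cells it gave 2288.9 and 2150.0 with PBS and 1884.6 and 1813.9 with LPS. LPS arrays were above PBS arrays in shLuc cells and below them in shDab2-B cells. The log2 fold change was 0.17 ± 0.06 (adjusted p = 0.068, limma) and -0.26 ± 0.06 (adjusted p = 0.0065), and the difference in response was -0.42 ± 0.08 (adjusted p = 0.014). The rise was called in 3 of 19 alternatives, and the fall lost its call with a common 75th percentile (-0.08) and without shDab2-B PBS replicate 1 (-0.22), with adjusted p up to 0.39. The call of the difference was lost in 6 of 18 alternatives, among them without shLuc PBS replicate 2, shLuc LPS replicate 1, shDab2-B PBS replicate 1 or shDab2-B LPS replicate 2 (-0.37 to -0.41), and adjusted p ran from 0.0036 to 0.070. With PBS it was higher in shDab2-B cells by 0.36 ± 0.06 (adjusted p = 0.003, limma), called in every alternative fitted with limma. Rab32, a Rab of lysosome-related organelles and mitochondria, fell with LPS by 0.41 and 0.21 and was higher in shDab2-B cells with LPS (0.32, adjusted p = 0.0028, limma). Rab27a, the close relative of Rab27b, stayed between 6.8 and 18.1.

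Among the 6 Rabs of polarised exocytosis and the cilium, Rab8a and Rab8b, a pair of paralogs of traffic from the Golgi to the surface, went opposite ways with LPS. Rab8a gave 3548.0 and 2885.9 with PBS and 2202.3 and 2392.4 with LPS in shLuc cells. Its shDab2-B values were 3380.1 and 3042.9 with PBS and 2175.1 and 2273.5 with LPS. The treatments did not overlap and the lines did. Its log2 fold change with LPS was -0.47 ± 0.09 and -0.52 ± 0.09 (adjusted p = 0.0026 and 0.001, limma). A second, dimmer Rab8a probe with a mean of 174.9 gave -0.05 and -0.01 with no call. Rab8b gave 3669.4 and 3400.5 with PBS and 4567.2 and 4962.4 with LPS in shLuc cells. On shDab2-B arrays it gave 2501.1 and 2658.6 with PBS and 4300.4 and 4202.5 with LPS. In each line LPS was above PBS, and shDab2-B arrays were below shLuc arrays of the same treatment. It rose with LPS by 0.43 ± 0.06 and 0.71 ± 0.06 (adjusted p = 0.00043 and 5.2e-06, limma), and between the lines with PBS it was -0.45 ± 0.06 (adjusted p = 0.0011). The second Rab8b probe gave 0.51, 0.67 and -0.46 for the same comparisons, all called. Between the lines with LPS the second probe was called lower (-0.30, adjusted p = 0.011, limma) and the first was not called (-0.16, adjusted p = 0.12). Without normalization the line difference of the first probe with PBS was -0.18 (adjusted p = 0.056, range over the alternatives 0.00021 to 0.056).

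Rab10, which in mouse macrophages carries TLR4 to the surface, gave 1839.9 and 2022.2 with PBS and 1934.8 and 1961.9 with LPS in shLuc cells. In shDab2-B cells the values were 1546.9 and 1760.8 with PBS and 1421.2 and 1434.5 with LPS. All shDab2-B arrays were below all shLuc arrays, and shLuc arrays overlapped between treatments. In the fit used here it was called between the lines with LPS alone (-0.44 ± 0.07, adjusted p = 0.0012, limma). The fold change with LPS in shDab2-B cells (-0.20, adjusted p = 0.054) was called in 6 of 19 alternatives, and the line difference with PBS (-0.22, adjusted p = 0.081) in 3, among them the mean of both probes. Its second probe gave 890.6 and 819.5 on the shLuc arrays with LPS and 916.6 and 978.9 on those of shDab2-B cells, a log2 fold change of 0.14 (adjusted p = 0.21, limma). The 2 probes went opposite ways, and with the mean of both the call was lost (-0.15, adjusted p = 0.071, range over the alternatives 0.00032 to 0.071). Of the Rabs discussed for TLR4 traffic, then, Rab11a was called higher in shDab2-B cells with LPS, Rab7b was not called there, and the call of Rab10 depended on the probe.

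Of the 13 Rabs of the ER and Golgi, 5 were called with LPS in each line, 5 between the lines with PBS and 4 with LPS. For the LPS response this is 38.5% in each line, beside 27.2% and 31.5% of all genes. For genes with a mean of at least 50, which 11 of the 13 had, the shares were 50% and 58%. Between the lines it is 38.5% and 30.8%, beside 12.1% and 20.7% of all genes and 22.9% and 38.3% of genes at that level. Rab2a, of traffic between the ER and the Golgi, gave 1429.1 and 1426.4 with PBS and 1073.5 and 1094.5 with LPS in shLuc cells. For shDab2-B cells these were 2377.9 and 2251.9 under PBS and 1950.8 and 1886.9 under LPS. All shDab2-B arrays were above all shLuc arrays. Between the lines it was higher by 0.68 ± 0.05 with PBS and 0.80 ± 0.05 with LPS (adjusted p = 2.4e-05 and 2.8e-06, limma), and with LPS it fell by 0.38 and 0.26. The fall in shDab2-B cells was lost with a common 75th percentile (-0.08, adjusted p = 0.33, range over the alternatives 1.3e-05 to 0.33).

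Rab1b, needed for the step from the ER to the Golgi, gave 671.2 and 560.9 with PBS and 648.1 and 728.2 with LPS in shLuc cells. Its shDab2-B values were 727.5 and 685.2 with PBS and 1123.7 and 978.9 with LPS. The shDab2-B arrays with LPS stood above all others. The shLuc arrays with LPS overlapped the PBS arrays of either line, and with PBS the shLuc arrays were below the shDab2-B arrays. Rab1b had a log2 fold change of 0.54 ± 0.09 for LPS in shDab2-B cells and of 0.58 ± 0.09 between the lines with LPS (adjusted p = 0.00092 and 0.0013, limma). The first was 0.19 and not called without normalization (adjusted p = 0.15, range over the alternatives 0.00022 to 0.15), and both lost their call with a floor of 50 (adjusted p = 0.070 for the second). The difference in LPS response of Rab1b, 0.39 ± 0.13, was not called (adjusted p = 0.15). Its paralog Rab1a rose with LPS in shDab2-B cells (0.35) and was lower there with PBS (-0.39), and Rab6a, of the trans-Golgi network, rose with LPS in shLuc cells (0.35) and was higher in shDab2-B cells with PBS (0.50).

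Rab19, a little studied Rab of the Golgi, gave 55.8 and 64.1 with PBS and 19.9 and 27.6 with LPS in shLuc cells. On shDab2-B arrays it gave 97.9 and 108.0 with PBS and 28.2 and 42.8 with LPS. All LPS arrays were below 50 and below the PBS arrays. The fall with LPS was at least 1.2-fold in shLuc cells and at least 2.06-fold in shDab2-B cells (adjusted p = 0.0034 and 0.00017, limma). Its higher level in shDab2-B cells with PBS (0.48, adjusted p = 0.025, limma) was lost when any of the 4 PBS arrays was left out (0.42 to 0.53, adjusted p over the alternatives 0.00061 to 0.18). Rab40c, whose protein family carries a SOCS box that binds a ubiquitin ligase, gave 1642.4 and 1657.1 with PBS and 1181.5 and 1109.2 with LPS in shLuc cells. In shDab2-B cells the values were 1756.9 and 1723.6 with PBS and 983.2 and 959.2 with LPS. It fell with LPS in both lines, with no overlap, by 0.51 ± 0.05 and 0.81 ± 0.05 (adjusted p = 3.8e-05 and 5.4e-07, limma). The difference in response, -0.30 ± 0.08, was not called (adjusted p = 0.054, limma). Between the lines with LPS it was -0.23 (adjusted p = 0.015, limma), which was lost without normalization (-0.10) and without shLuc LPS replicate 1 (-0.18) or shDab2-B LPS replicate 2 (-0.21), with adjusted p from 0.0081 to 0.25.

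Over the whole family, 33 of the 58 Rabs were called in at least 1 of the 5 comparisons and 25 in none. This is 56.9%, beside 41.4% of all genes, and among members with a mean of at least 50 it was 76.2%, beside 73.3% of genes at that level. For the 9 Rabs with 2 probes, no comparison had the probes called in opposite directions. RefSeq windows were found for 47 of the 58 Rabs. The ratio of observed to expected CpG in the window had a median of 0.78 for the 36 Rabs with a mean of at least 50, 0.59 for the 11 dimmer ones, and 0.39 over 27025 genes, given as a description with no test.

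Genes that act on Rabs were counted from 4 lists: exchange factors, GTPase-activating proteins, the membrane cycle and effectors. Of 123 measured regulators and effectors, 42 were called with LPS in shLuc cells, 15 higher and 27 lower (34.1%), and 54 in shDab2-B cells, 22 higher and 32 lower (43.9%). Between the lines 23 were called with PBS (18.7%) and 37 with LPS (30.1%), and 7 for the difference in LPS response (5.69%). Over all genes the shares were 27.2% and 31.5% with LPS, 12.1% and 20.7% between the lines, and 5.8% for the difference. For genes with a mean of at least 50, which 91 of the 123 had, the shares were 50% and 58% with LPS. At that level they were 22.9% and 38.3% between the lines and 11.1% for the difference. Micall2, an effector of Rab8 and Rab13 in actin and junction traffic, gave 26.0 and 37.9 with PBS and 235.0 and 215.8 with LPS in shLuc cells. For shDab2-B cells these were 23.1 and 15.0 under PBS and 384.1 and 400.1 under LPS. LPS arrays were far above PBS arrays in both lines, and highest in shDab2-B cells. The PBS arrays were all under 50, so the rise was at least 4.5-fold in shLuc and at least 7.84-fold in shDab2-B cells (adjusted p = 3.1e-07 and 5e-09, limma). The difference in its LPS response was called (adjusted p = 0.004, limma), and since it rests on dim PBS arrays in both lines no size is given. The difference was also called for Rab11fip1, an effector of Rab11 (0.55, adjusted p = 0.032), and for Dennd3, an exchange factor (-0.58, adjusted p = 0.048).

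Eea1, the tether that Rab5 recruits to early endosomes, gave 1789.6 and 1849.9 with PBS and 3135.6 and 3103.2 with LPS in shLuc cells. Its shDab2-B values were 1773.6 and 1738.5 with PBS and 3615.6 and 3498.1 with LPS. The PBS arrays of both lines were close, and all LPS arrays were above them. Its log2 fold change with LPS was 0.76 ± 0.05 and 1.00 ± 0.05 (adjusted p = 1e-06 and 5.8e-08, limma). Rab3il1, an exchange factor for Rab3a and Rab8, fell by 1.02 and 1.25. Of the 33 GTPase-activating proteins, LPS raised 3 and lowered 9 in the control line and raised 7 and lowered 9 in the shDab2-B line (36.4% and 48.5%, beside 27.2% and 31.5% of all genes). For genes with a mean of at least 50, which 23 of the 33 had, the shares were 50% and 58%. The GTPase-activating proteins that passed a log2 fold change of 1 all fell. Tbc1d14, which binds Rab11 and acts in autophagy, had a log2 fold change of -0.81 and -1.10, and Tbc1d16, which acts on Rab4, of -0.64 and -1.12, all called. Tbc1d4, which acts on Rab10 in fat and muscle cells, was under 50 on all LPS arrays, with means of 5.6 and 8.9, and its fall was at least 1.38-fold in shLuc and at least 1.63-fold in shDab2-B cells (adjusted p = 7.6e-06 and 2.9e-06, limma).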

How the data were processed

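RNA was hybridized to Phalanx OneArray mouse arrays with 1 colour, and the sample labels gave the groups and the replicate numbers. The values deposited by the authors are intensities on a linear scale, from -11 to 65470, for 26423 probes, and the values below 0 show that a background had been subtracted. How they were extracted from the scans and whether they were normalized is not given in the sources used here. A second deposited table holds the authors' means per group and was not used. Precision is limited by having 2 arrays in each group.

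After quantile normalization an offset of 50 was applied before taking log2. A change in total RNA per cell is removed by this step. The test was limma (version 3.58.1, R version 4.3.3) with a mean for every group, fitted to all 8 arrays, and a trend of the variance with intensity (4 residual degrees of freedom, 6.7 prior). P-values were corrected over all probes (Benjamini-Hochberg). The scripts were tested on simulated data. The array's annotation gave 1 gene symbol for 21876 probes and none for 4547, and its symbols can be old. Genome positions and promoter windows are from RefSeq (GRCm38.p6).

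The members, the gene lists and the grouping by site of action were chosen with earlier results of these data known. Members are named with their values if called with a log2 fold change of at least 0.5 in either direction in any comparison, or if the study discusses them for TLR4 traffic. Regulators and effectors are named at a log2 fold change of at least 1. Rab5a, Rab24, Rab27b and Rab31 and others given in short were added after their values were seen. No gene set test was run. Alternatives were no normalization, a common 75th percentile, offsets of 16 and 100, a floor of 50, dim probes left out, no variance trend, robust variance, the replicate number as a block, the 2 groups alone, the mean of all probes, the methods' criterion and a t-test, and each array left out in turn.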

Additional observations from a re-analysis of the deposited data

Results flagged for a closer look

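For 4 of the 58 Rabs the LPS response differed between shDab2-B and shLuc cells by limma's test of the difference itself. The difference in log2 fold change was 0.99 for Rab20 (adjusted p = 8.3e-05), where the rise with LPS was larger in shDab2-B cells, and -1.32 for Rab15 (adjusted p = 6.5e-05), which fell with LPS in shDab2-B cells alone. It was -0.42 for Rab27b (adjusted p = 0.014) and -0.35 for Rab31 (adjusted p = 0.019). Rab20 and Rab15 were called in every alternative fitted with limma, while Rab27b lost its call in 6 and Rab31 in 8 of 18. With 1 line per shRNA, the part of the Dab2 shRNA in these differences was not tested. Groups of 2 arrays were too small to look for arrays that stand apart by a formal rule.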

How the results depend on the processing

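The number of Rabs called was 21 and 23 with LPS in shLuc and shDab2-B cells, 16 and 20 between the lines with PBS and LPS, and 4 for the difference in LPS response. Without normalization it was 26 between the lines with PBS and 10 for the difference. With a floor of 50, at which many probes have no spread, it was 38 for LPS in shLuc cells, 34 between the lines with PBS and 13 with LPS. Leaving out dim probes gave 8 for the difference, and no variance trend gave 2. The study's methods name a t-test in general and no test for the arrays. That t-test has 2 degrees of freedom per gene, and the Benjamini-Hochberg adjustment was added here. With the adjustment it gave 2 and 6 for LPS and 1 and 0 between the lines (with its unadjusted p under 0.05 it gave 22, 25, 20 and 22). For the regulators and effectors, with 42, 54, 23, 37 and 7 calls, the floor gave 75 for LPS in shLuc cells, 55 and 18 between the lines with PBS and LPS, and 4 for the difference. Without normalization their count was 42 with PBS between the lines and 19 for the difference, no trend gave 15 and 4, leaving out dim probes gave 12 for the difference, and the t-test gave 0, 8, 0 and 0. Leaving out 1 array at a time gave 18 to 23, 21 to 25, 10 to 15, 12 to 21 and 2 to 4 Rabs, and 29 to 45, 42 to 54, 10 to 22, 19 to 36 and 3 to 8 regulators and effectors. The lowest count of regulators and effectors was without shLuc PBS replicate 2 with PBS, without shLuc LPS replicate 2 with LPS, and without shDab2-B PBS replicate 2 for the difference. Among the Rabs named with their values, the one fold change that turned its sign while called was that of Rab24 with LPS in shDab2-B cells, -0.40 without shDab2-B PBS replicate 1 and 0.65 without replicate 2. Of the other called Rabs, Rab22a and Rab2b with LPS in shDab2-B cells went from 0.32 and 0.30 to -0.02 and -0.12 without normalization, neither called, and Rab17 between the lines with LPS had no difference left with a floor of 50. Other than where a setting's construction is given, the cause was not tested. The labels do not say whether replicate numbers pair the arrays. The correlation of deviations between same-numbered arrays was -0.09 to 0.16, which cannot settle it with 2 arrays per group. The fit with the replicate block called 21, 24, 16, 20 and 5 Rabs and 41, 54, 22, 37 and 5 regulators and effectors. Of the values of the 16 named Rabs under these alternatives, 1010 kept their side of the threshold, of which 7, none called, turned their sign, 76 lost a call and 12 gained one.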
